A study of Homo sapiens with 8 samples.

Results

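GATA2 occupancy was examined around 10 genes of the unfolded protein response, the set of signals that adjusts a cell's protein-folding capacity when unfolded proteins accumulate in the endoplasmic reticulum (ER). The genes were ERN1, XBP1, ATF6, EIF2AK3, ATF4, DDIT3, HSPA5, CREB3L1, CREB3L2 and CREB3L4. A GATA2 peak was assigned to a gene when its summit lay within 50 kb of the gene's RefSeq span on GRCh38. By that rule 57 of 71653 peaks were assigned, and they merged into 28 of the 36122 regions formed by overlapping peaks of all lists. All 10 genes matched the annotation, and 9 of them had at least 1 region. The regions were chosen by the summit positions in the deposited lists, so that a peak in at least 1 list is part of the choice and not a finding.

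GATA2 is a zinc-finger transcription factor of prostate and blood cells, and its binding in VCaP, a human cell line from a castrate-resistant prostate cancer, was read by ChIP-seq, in which DNA precipitated with an antibody is sequenced. JQ1-treated cells received 1 µM JQ1, an inhibitor of the acetyl-lysine-reading BET bromodomain proteins, for the last 24 h before harvest. Control cells, titled as non-treated, were described in the growth protocol as receiving DMSO over the same time, and all cells of both groups had been kept without steroids for 72 h. There were 2 JQ1 and 2 untreated precipitates, each with its own peak list, and whether the replicates were separate cultures is not stated in the labels. All data come from a single cell line, and peak lists hold no RNA, so that neither expression nor cell type markers could be read from them.

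The proteins IRE1, PERK and ATF6 sit in the ER membrane and sense unfolded proteins. The kinase and ribonuclease IRE1, encoded by ERN1, removes an intron from XBP1 mRNA so that the active factor XBP1 is made. The kinase PERK, encoded by EIF2AK3, slows translation through the initiation factor eIF2 and favours synthesis of ATF4, which in turn raises DDIT3, the gene of the death-associated factor CHOP. ATF6 is cut in the Golgi and its released part acts on genes such as HSPA5, which encodes the ER chaperone BiP. CREB3L1, CREB3L2 and CREB3L4 are membrane-bound relatives of ATF6 that are released in the same way, and CREB3L4 is known as an androgen-induced gene of prostate epithelium. In prostate cancer cells, androgen signalling is known to engage the IRE1 and XBP1 branch.

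No GATA2 peak of any list lay on a promoter window of the 10 genes. RefSeq (GRCh38.p14) gave 14 promoter windows for the 10 genes, each from 250 bases before to 50 bases after a transcription start, and a peak crossed 0 of the 14. Over 15843 protein-coding genes with such a window, 0.947% had a peak on it. Below are the 250 bases before the start of HSPA5 (chr9:125241344-125241593, minus strand), of XBP1 (chr22:28800570-28800819, minus strand) and of CREB3L2 (chr7:138002087-138002336, minus strand), 5′ to 3′ on the gene's strand. They are shown because they hold the searched stress or cyclic AMP elements, while the GATA2 summits assigned to the same genes lay at least 7.61 kb from these starts. Capitals mark matches to the motifs searched.
HSPA5: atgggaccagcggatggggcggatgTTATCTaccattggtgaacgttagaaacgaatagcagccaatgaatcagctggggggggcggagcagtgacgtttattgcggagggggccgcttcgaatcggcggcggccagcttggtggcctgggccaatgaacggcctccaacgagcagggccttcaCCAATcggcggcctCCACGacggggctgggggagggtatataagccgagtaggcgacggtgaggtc
XBP1: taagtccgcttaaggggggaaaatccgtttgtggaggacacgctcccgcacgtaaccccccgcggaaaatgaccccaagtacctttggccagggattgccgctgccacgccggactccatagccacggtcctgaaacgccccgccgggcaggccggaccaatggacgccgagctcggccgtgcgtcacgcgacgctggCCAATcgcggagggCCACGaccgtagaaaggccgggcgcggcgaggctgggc
CREB3L2: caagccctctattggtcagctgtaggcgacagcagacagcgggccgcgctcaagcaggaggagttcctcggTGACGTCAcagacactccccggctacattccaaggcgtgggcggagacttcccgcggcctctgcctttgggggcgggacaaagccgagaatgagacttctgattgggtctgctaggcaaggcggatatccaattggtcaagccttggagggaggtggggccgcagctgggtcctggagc

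The ER stress response element, searched on both strands as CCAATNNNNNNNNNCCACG, was found in HSPA5, 66 to 48 bases before the start, and in XBP1, 52 to 34 bases before it. It occurred in 2 of the 10 genes and in 0.133% of the 15843 genes. The cyclic AMP response element TGACGTCA, which is its own reverse complement, occurred in CREB3L2 alone among the 10 genes and in 2.73% of all. The GATA letters AGATAA or TGATAA, searched on both strands, occurred in HSPA5 (as TTATCT on the printed strand) and ATF6, and in 14.4% of all genes. These are matches of letters in 250 bases and not measured binding sites. Sequences of the GATA2 regions themselves were not analysed here.

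The lengths of the 4 lists differed more between replicates than between treatments. JQ1 replicates 1 and 2 held 4974 and 32404 peaks and untreated replicates 1 and 2 held 6902 and 27373. The number of fragments stacked at each summit was recovered from the authors' fold enrichment and p-value. The genome-wide background recovered with it was 1.13 and 1.56 fragments in the JQ1 lists and 1.25 and 1.96 fragments in the untreated lists. Summit height below means fragments at the summit divided by that background, which takes out depth but not differences in the yield of the precipitation. A region missing from a list was below the calling limit there, a q-value of 0.05, which is not the same as unbound.

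The 10 genes held 5 and 24 peaks in JQ1 replicates 1 and 2, against 6 and 22 in untreated replicates 1 and 2. These were 0.101% (95% Wilson interval 0.0429 to 0.235) and 0.0741% (0.0498 to 0.110) of the JQ1 lists, and 0.0869% (0.0398 to 0.190) and 0.0804% (0.0531 to 0.122) of the untreated lists, where the intervals cover counting error only. The mean share was 0.0873% ± 0.0187 with JQ1 and 0.0837% ± 0.00464 without (SD, n = 2 each). The difference was smaller than either SD, and the two-sided exact permutation test gave p = 1. The mean number was 14.5 ± 13.4 peaks with JQ1 and 14 ± 11.3 without (SD, n = 2 each), with a log2 difference of −0.07 (exact permutation p = 1). No split of 4 lists into pairs can bring this p below 0.333.

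**Figure D1:**
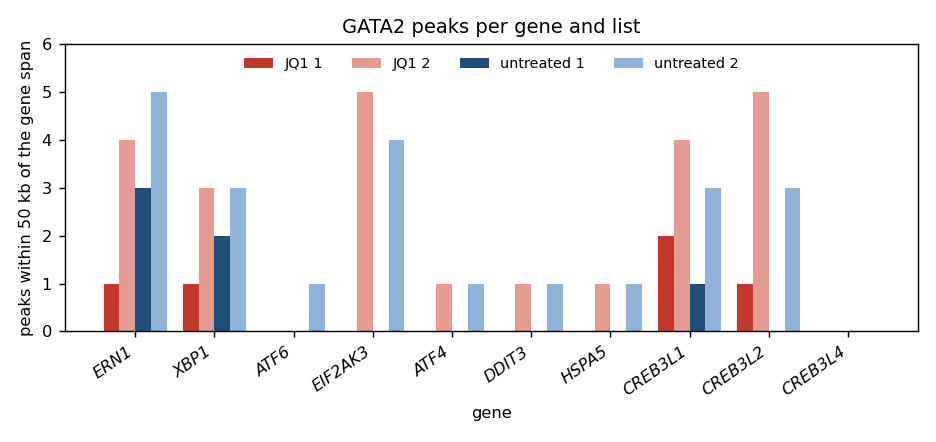
Number of GATA2 peaks (y axis) with a summit within 50 kb of each of the 10 genes (x axis) in JQ1 replicates 1 and 2 (red) and untreated replicates 1 and 2 (blue). ERN1 reaches 5 peaks in untreated replicate 2, EIF2AK3 and CREB3L2 reach 5 in JQ1 replicate 2, and CREB3L4 has none.

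Of the 28 regions, 12 fell inside the gene's own span and 16 outside it, and 17 fell inside some protein-coding span, which is 60.7% against 49.9% of all regions. The annotation used gives spans without exons, so that exonic and intronic positions were not told apart. Distances to the RefSeq start used ran from 2.51 kb at ATF4 to 91.0 kb at EIF2AK3, with 13 regions upstream and 15 downstream of it. At CREB3L1 that start lay inside the span, and the CREB3L1 regions lay only 1.22 to 9.5 kb before the span. The closest gene span was that of the assigned gene for 21 regions. The 7 others lay nearest to TEX2, CCDC117, SPMIP9, RPIA, DCTN2 or GAPVD1, named beside their regions below. The windows together spanned 1.56 Mb and held 18.0 regions per Mb, against 12.3 per Mb between the first and last peak of the chromosomes, and windows around genes are not comparable with intergenic sequence.

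At the edge of the rule, the farthest assigned summits lay 43.8 kb from EIF2AK3 and the nearest unassigned ones 55.7 kb from HSPA5. The unassigned HSPA5 region had a −log10 q of 50.5 in JQ1 replicate 2 and of 5.00 and 36.4 in untreated replicates 1 and 2. In both replicate 2 lists that is stronger than the peak assigned to HSPA5.

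Of the 10 genes, 4 had a region present in both JQ1 lists (ERN1, XBP1, CREB3L1 and CREB3L2), where 17.8% of all 20037 protein-coding genes had one. By region these were 5 of 28, or 17.9% against 13.1% of all regions. A region present in both untreated lists was found at 3 (ERN1, XBP1 and CREB3L1), against 24.3% of all genes, and by region at 6 of 28, or 21.4% against 17.6%. The same 3 genes had a region in all 4 lists, against 13.6% of all genes, and 9 of 10 had a peak in any list, against 62.6%. Counted by region, 3 of 28 were present in all 4 lists, or 10.7% against 8.96% of all regions, and 1 with peaks limited to a q-value of 1e-05 or less. The largest class was 12 regions present in both replicate 2 lists and in neither replicate 1 list, or 42.9% against 38% of all regions. Another 8 regions, or 28.6% against 40%, were in a single list, 5 of them in JQ1 replicate 2 and 3 in untreated replicate 2. All 28 were called in at least 1 replicate 2 list, as were 99.1% of all regions.

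**Figure D2:**
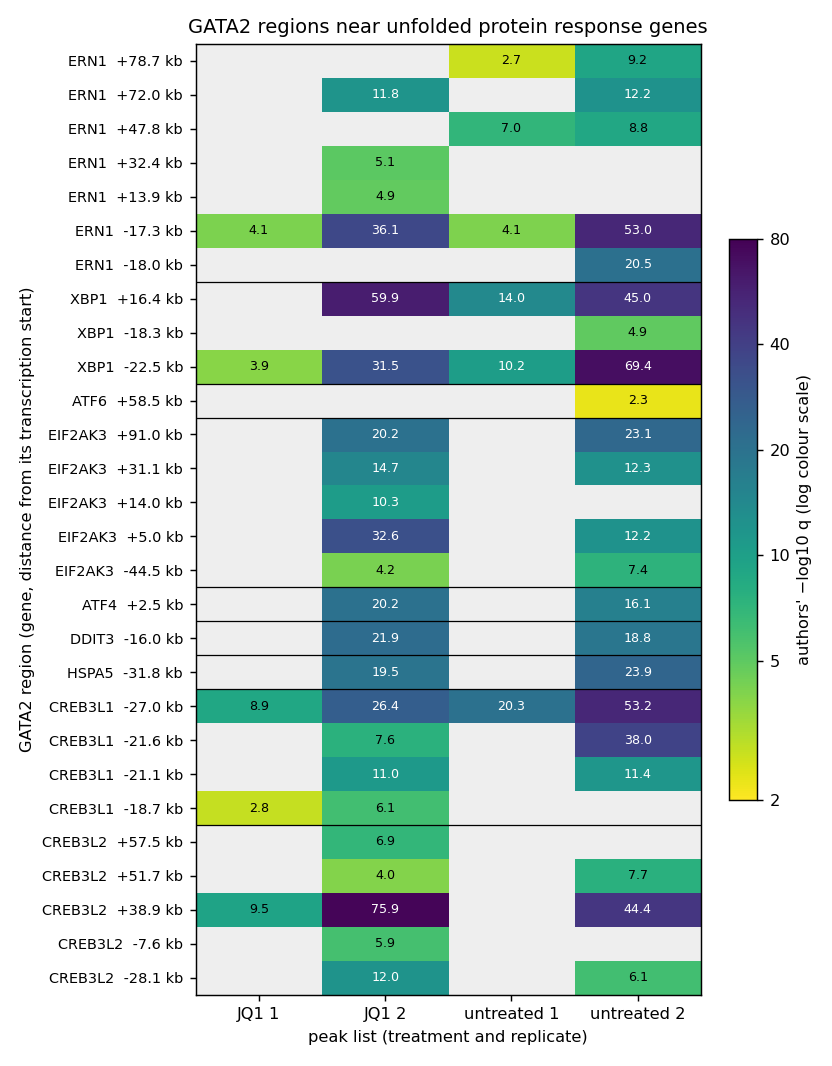
The 28 GATA2 regions (rows, named by gene and by the distance of the summit from its transcription start, positive downstream) in the 4 peak lists (columns). Colour and number give the authors' −log10 q, and grey marks a region not called in that list. Entries in the replicate 1 columns are confined to 4 of the 10 genes (ERN1, XBP1, CREB3L1 and CREB3L2), where 29% of all genes had a replicate 1 peak within 50 kb.

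Grouped by branch of the response, ERN1 and XBP1 together had 10 regions and 2 and 7 peaks in JQ1 replicates 1 and 2, against 5 and 8 in untreated replicates 1 and 2. The PERK branch of EIF2AK3, ATF4 and DDIT3 had 7 regions and 0 and 7 peaks with JQ1, against 0 and 6 untreated. ATF6 and HSPA5 had 2 regions and 0 and 1 peaks with JQ1, against 0 and 2 untreated. The 3 CREB3L genes had 9 regions and 3 and 9 peaks with JQ1, against 1 and 6 untreated. The branches differ in the number and length of their genes, and so in the window searched. Over all genes, 29% had a replicate 1 peak within 50 kb. No test was made between the branches.

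ERN1, the IRE1 gene (NCBI gene 2081, chr17:64039142-64130144), had 7 regions, the largest number among the 10 genes. Its strongest region, chr17:64147279-64147615, lay 17.3 kb upstream of the start and inside the neighbouring gene TEX2. It had a −log10 q of 4.14 and 36.1 in JQ1 replicates 1 and 2, against 4.08 and 53.0 in untreated replicates 1 and 2. The summits held 11 and 46 fragments with JQ1 and 14 and 75 untreated. It was called in all 4 lists, was weak in both replicate 1 lists and had a lower q-value than most peaks of both replicate 2 lists, at the top 16.9% of JQ1 replicate 2 and the top 12.3% of untreated replicate 2. The height ratio of JQ1 over untreated was 0.873 (95% exact binomial interval 0.359 to 2.07) in replicate 1 and 0.768 (0.520 to 1.12) in replicate 2, so that the difference was within counting error in both. The ratio of the authors' fold enrichments was 1.15 in replicate 1 and 0.638 in replicate 2.

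Both of the untreated-separated regions of the set, that is, regions present in both untreated lists and in neither JQ1 list, lay inside ERN1. This class held 2 of the 28 regions, or 7.14% against 0.62% of all regions, and 1.24% of all genes had such a region within 50 kb. The region chr17:64051316-64051490, 78.7 kb downstream of the start, had a −log10 q of 2.68 and 9.17 and 14 and 28 fragments in the untreated lists. The region chr17:64082226-64082426, 47.8 kb downstream, had 7.01 and 8.82 and 20 and 36 fragments there. All of these peaks ranked in the weaker part of their lists, at the top 64.5% to 95.8% by q-value, and with peaks limited to a q-value of 1e-05 or less 1 untreated-separated region was left. Elsewhere in ERN1, the region chr17:64058012-64058215, 72.0 kb downstream, was in both replicate 2 lists with 11.8 in JQ1 and 12.2 in untreated cells, with 20 and 32 fragments and a height ratio of 0.783 (95% exact binomial interval 0.424 to 1.41). Regions 32.4 and 13.9 kb downstream were in JQ1 replicate 2 alone with 5.09 and 4.86, and a region 18.0 kb upstream, also inside TEX2, was in untreated replicate 2 alone with 20.5. Peaks called with JQ1 alone and peaks called untreated alone thus stood side by side around the gene.

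XBP1, the gene of the factor that IRE1 activates (NCBI gene 7494, chr22:28794560-28800569), had 3 regions, all outside its short span. The region chr22:28822969-28823481, 22.5 kb upstream of the start and in no protein-coding span, was called in all 4 lists. Its −log10 q was 3.86 and 31.5 in JQ1 replicates 1 and 2, against 10.2 and 69.4 in untreated replicates 1 and 2. The best summits held 13 and 58 fragments with JQ1 and 25 and 107 untreated. Values were lower with JQ1 in both replicates. The height ratio was 0.578 (95% exact binomial interval 0.271 to 1.17) in replicate 1 and 0.679 (0.484 to 0.943) in replicate 2, and the ratio of the authors' fold enrichments was 0.792 and 0.425. The interval excluded 1 in replicate 2 only. In JQ1 replicate 2 the interval also held a weaker, further summit with a −log10 q of 2.20.

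The region chr22:28784027-28784339, 16.4 kb downstream of the XBP1 start and inside CCDC117, was called in 3 lists. It was absent from JQ1 replicate 1 and had a −log10 q of 59.9 in JQ1 replicate 2, against 14.0 and 45.0 in untreated replicates 1 and 2. The summit held 64 fragments in JQ1 replicate 2 and 24 and 86 in the untreated lists. In replicate 2 the height ratio was 0.932 (95% exact binomial interval 0.664 to 1.30), within counting error, and the fold ratio was 1.40. Set against the upstream region, it held more fragments in JQ1 replicate 2 (64 and 58) and fewer in untreated replicates 1 (24 and 25) and 2 (86 and 107). These differences were not tested and have no interval. The local backgrounds differed too, with 2.72 and 6.47 fragments in JQ1 replicate 2. They were 2.10 and 3.45 in untreated replicate 1, and 5.54 and 4.37 in untreated replicate 2. The third region, 18.3 kb upstream, was in untreated replicate 2 alone with a −log10 q of 4.95.

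**Figure D3:**
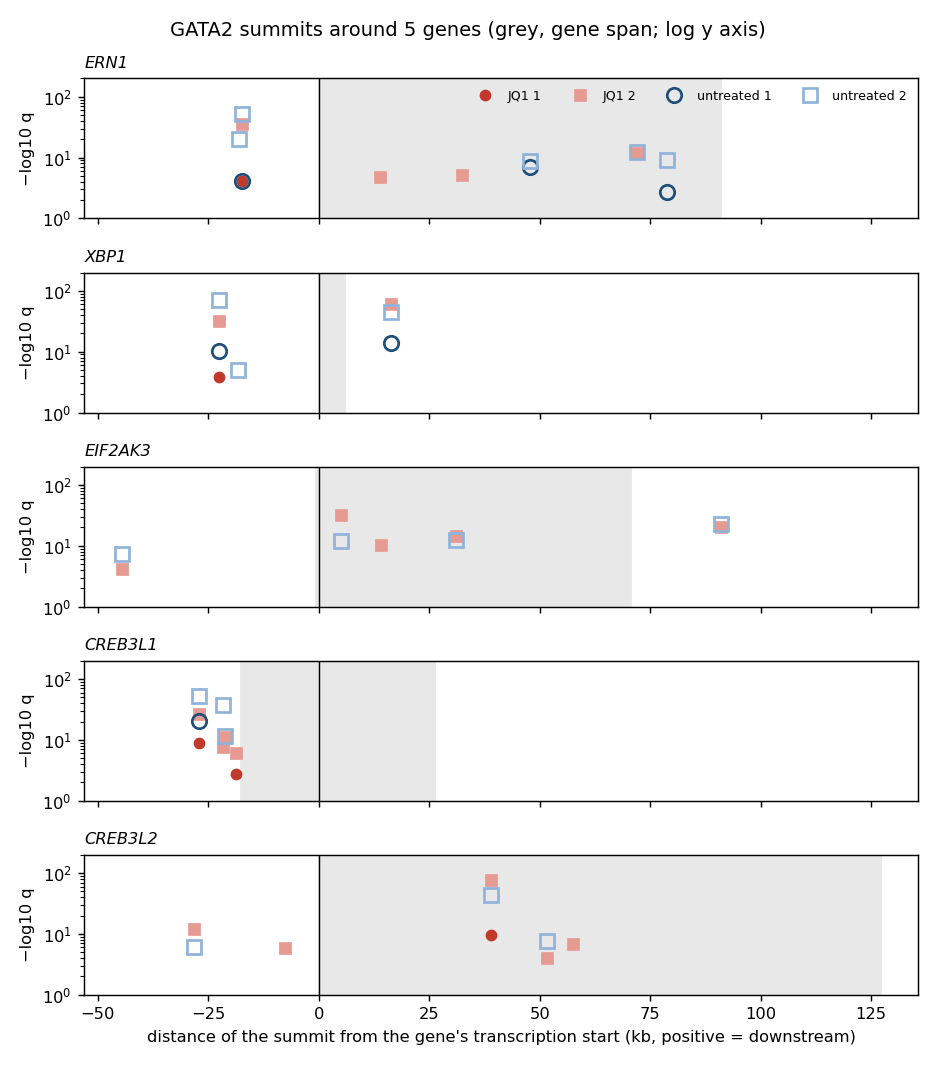
Summits of the GATA2 regions around ERN1, XBP1, EIF2AK3, CREB3L1 and CREB3L2 (x axis, distance from the transcription start in kb, downstream to the right) with the authors' −log10 q (y axis, log scale). Filled red symbols are JQ1 and open blue symbols untreated, circles are replicate 1 and squares replicate 2, and grey shading is the gene span. The CREB3L1 summits all lie between 18.7 and 27.0 kb upstream of the start used, which is inside the span. They lie 1.22 to 9.5 kb before the span.

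EIF2AK3, the PERK gene (NCBI gene 9451, chr2:88556741-88628145), had 5 regions, of which 4 were in both replicate 2 lists and 1 in JQ1 replicate 2 alone. No peak of either replicate 1 list was assigned to it. The region nearest its start, chr2:88622338-88622632, 4.96 kb downstream and inside the gene, had a −log10 q of 32.6 in JQ1 replicate 2, against 12.2 in untreated replicate 2. The summit held 43 fragments with JQ1 and 31 untreated, over local backgrounds of 2.77 and 2.91 fragments. The height ratio was 1.74 (95% exact binomial interval 1.07 to 2.85) and the fold ratio 1.57. It was the only shared region of the set whose interval lay above 1, and over the whole series 6.48% of the regions shared in replicate 2 did so. With no call in replicate 1, the difference has no replicate check.

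The other shared EIF2AK3 regions differed less. The region chr2:88596215-88596542, 31.1 kb downstream and inside the gene, had a −log10 q of 14.7 in JQ1 replicate 2 and 12.3 in untreated replicate 2, with a height ratio of 1.02. The region chr2:88536248-88536590, 91.0 kb downstream and nearest to SPMIP9, had 20.2 with JQ1 and 23.1 untreated, with a height ratio of 0.814. The region chr2:88671816-88672004, 44.5 kb upstream and nearest to RPIA, the gene of an enzyme of the pentose phosphate pathway, had 4.22 with JQ1 and 7.38 untreated, with a height ratio of 0.656. All 3 intervals included 1. The region in JQ1 replicate 2 alone lay 14.0 kb downstream, with a −log10 q of 10.3.

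ATF4 and DDIT3, the transcription factor genes below PERK, each had a single region in both replicate 2 lists. At ATF4 (NCBI gene 468, chr22:39520559-39522686) the region chr22:39522946-39523177 lay 2.51 kb downstream of the start, just past the 3′ end of the gene. Its −log10 q was 20.2 in JQ1 replicate 2 and 16.1 in untreated replicate 2, with 26 and 39 fragments and a height ratio of 0.835 (95% exact binomial interval 0.488 to 1.41) and a fold ratio of 1.24. At DDIT3 (NCBI gene 1649, chr12:57516588-57520517) the region chr12:57536389-57536610 lay 16.0 kb upstream, inside DCTN2, a dynactin subunit gene. Its −log10 q was 21.9 with JQ1 and 18.8 untreated, with 29 and 59 fragments. The DDIT3 height ratio was 0.616 (0.380 to 0.976), but the fold ratio was 1.60, since the local background was 1.85 fragments in the JQ1 list and 7.75 in the untreated list. The direction at DDIT3 therefore depended on the background used.

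ATF6 and its target HSPA5 had a single region each, which is also the median over all protein-coding genes (1). ATF6 (NCBI gene 22926, chr1:161766320-161964070), the longest of the 10 genes with 198 kb, had a single peak, in untreated replicate 2, with a −log10 q of 2.26 and 13 fragments. HSPA5 (NCBI gene 3309, chr9:125234853-125241343) had a region 31.8 kb upstream at chr9:125272956-125273257, inside GAPVD1, a regulator of endosomal traffic. The value there was 19.5 in JQ1 replicate 2 and 23.9 in untreated replicate 2, with a height ratio of 0.851 (95% exact binomial interval 0.541 to 1.32), within counting error. The printed HSPA5 promoter, which holds both the ER stress response element and GATA letters, was crossed by no peak. Such a peak was rare in general, at 0.947% of all genes with a promoter window.

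CREB3L1 (NCBI gene 90993, chr11:46277662-46321409), the gene of the factor OASIS known from bone and secretory cells, had 4 regions, all upstream of its span. The region chr11:46268003-46268303, 27.0 kb upstream of the RefSeq start used, was called in all 4 lists. Its −log10 q was 8.93 and 26.4 in JQ1 replicates 1 and 2, against 20.3 and 53.2 in untreated replicates 1 and 2. The summits held 15 and 31 fragments with JQ1 and 25 and 70 untreated. Values were lower with JQ1 in both replicates. The height ratio was 0.667 (95% exact binomial interval 0.327 to 1.32) in replicate 1 and 0.555 (0.351 to 0.858) in replicate 2, and the fold ratio was 0.652 and 0.597. The interval of replicate 2 also lay below the series median of 0.873 for shared regions. The share of all shared regions whose interval did so was not counted.

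The 2 next CREB3L1 regions were in both replicate 2 lists only. That at chr11:46273334-46273772 lay 21.6 kb upstream of the start used and 4.06 kb before the span. Its −log10 q was 7.58 in JQ1 replicate 2, against 38.0 in untreated replicate 2. It held 24 fragments with JQ1 and 56 untreated, with a height ratio of 0.537 (95% exact binomial interval 0.318 to 0.880) and a fold ratio of 0.267. Its local background was 4.62 fragments with JQ1 and 1.99 untreated. The region chr11:46273929-46274137 lay 21.1 kb upstream of the start used and 3.63 kb before the span. It had a −log10 q of 11.0 with JQ1 and 11.4 untreated. Its height ratio was 0.644, with an interval that included 1, and its fold ratio was 1.19. Heights at all 3 shared regions of CREB3L1 were lower in JQ1 replicate 2.

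CREB3L1 also carried the only JQ1-separated region of the set, called in both lists of JQ1 cells but in no list of untreated cells. It lay 18.7 kb upstream of the start and 1.22 kb before the span, at chr11:46276274-46276521, with a −log10 q of 2.77 and 6.11 and with 9 and 17 fragments. The summits of both JQ1 lists were 86 bp apart, the widest spread among the 20 regions present in 2 or more lists, whose median was 18.5 bp. JQ1-separated regions made up 1 of 28, or 3.57% against 0.377% of all regions, and 0.719% of all genes had such a region within 50 kb. Both peaks were weak, at the top 93.4% and 76.8% of their lists, and with peaks limited to a q-value of 1e-05 or less there were 0 JQ1-separated regions in the set.

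CREB3L2 (NCBI gene 64764, chr7:137874979-138002086), the gene of BBF2H7, known in mouse cartilage for its part in secretion, had 5 regions. Its strongest, chr7:137963017-137963304, lay 38.9 kb downstream of the start and inside the gene. It had a −log10 q of 9.46 and 75.9 in JQ1 replicates 1 and 2, was not called in untreated replicate 1 and had 44.4 in untreated replicate 2. The summits held 20 and 72 fragments with JQ1 and 80 in untreated replicate 2. The peak of JQ1 replicate 2 was the strongest of the set in that list, at the top 5.14%. The height ratio in replicate 2 was 1.13 (95% exact binomial interval 0.808 to 1.57), within counting error, and the fold ratio was 1.58.

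The other CREB3L2 regions were weaker. The region chr7:137950298-137950495, 51.7 kb downstream, had a −log10 q of 3.96 in JQ1 replicate 2 and 7.71 in untreated replicate 2, with 14 and 45 fragments. Its height ratio was 0.390 (95% exact binomial interval 0.198 to 0.723), but its fold ratio was 1.01, over local backgrounds of 2.72 fragments with JQ1 and 10.2 untreated. The region chr7:138030092-138030290, 28.1 kb upstream, had 12.0 with JQ1 and 6.07 untreated, with 21 and 22 fragments and a height ratio whose interval (0.625 to 2.28) included 1. The regions 57.5 kb downstream and 7.61 kb upstream were in JQ1 replicate 2 alone, with 6.91 and 5.94. CREB3L4 (NCBI gene 148327, chr1:153967487-153974359) had no peak in any list, and the nearest summit lay 119 kb away.

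Over the 17 regions shared in replicate 2, summit height was lower with JQ1 at 13 and higher at 4. Over all 21172 regions shared in replicate 2 with a recovered height, 64.7% were lower with JQ1 and 35.3% higher. The median ratio was 0.783 for the 17 regions and 0.873 for all, and ratios of the 17 ran from 0.390 to 1.74. The interval lay below 1 at 5 of the 17, namely single regions of XBP1, DDIT3 and CREB3L2 and a pair at CREB3L1, where 15.7% of all shared regions did so. Set against the series median of 0.873 in place of 1, it lay below at 2 of the 17, of CREB3L1 and CREB3L2. It lay above that median at 1, of EIF2AK3. The share of all regions with such intervals was not counted, so these counts have no series value beside them. By the authors' fold enrichment the count was 8 lower and 9 higher, against 55.6% lower over all shared regions. Of the 17, 5 had opposite directions in the 2 measures, and the share of all shared regions with opposite directions is not given here. Of the regions with an interval excluding 1, those of XBP1, EIF2AK3 and CREB3L1 kept their direction in both measures. In replicate 1 the 3 shared regions, of ERN1, XBP1 and CREB3L1, were all lower in height with JQ1, as were 67.2% of 3271 shared regions, where 32.8% were higher. Each interval included 1, while over all of these the interval lay below 1 at 11% and above 1 at 1.77%. By fold enrichment 2 of the 3 were lower and ERN1 was higher (1.15), against 60.9% lower over all. The fold ratio of the same ERN1 region in replicate 2 was 0.638, in the opposite direction.

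**Figure D4:**
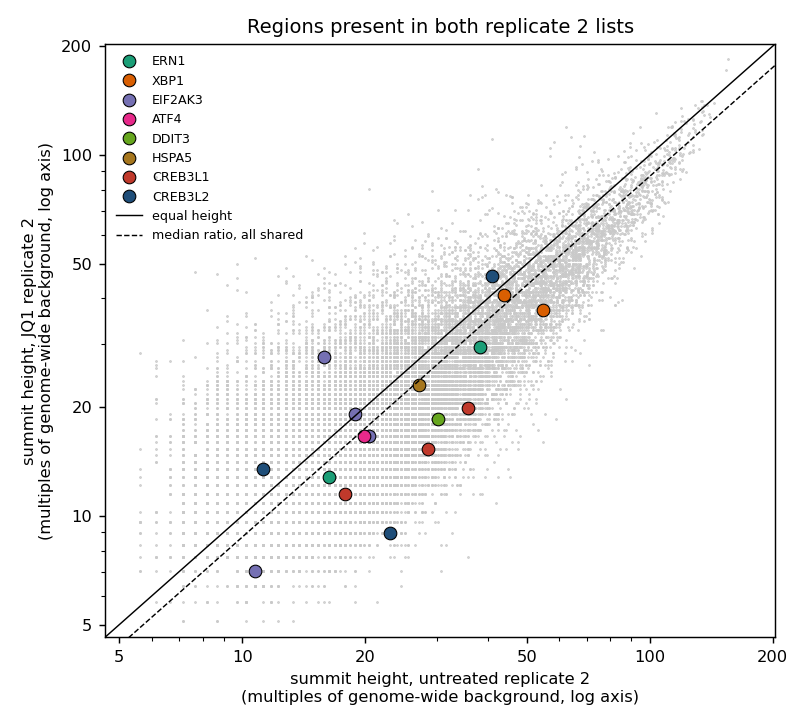
Summit height in JQ1 replicate 2 (y axis) against untreated replicate 2 (x axis), in multiples of the genome-wide background of each list on log axes, for the regions present in both lists. Coloured points are the 17 regions near the named genes, and grey points are all 21172 shared regions. The solid line marks equal height and the dashed line the median ratio of 0.873, and 13 coloured points lie below the solid line.

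Other genes of the response were counted in the same way. Of 50 further genes of ER folding, degradation of misfolded proteins and stress signalling, named from knowledge of the pathway, all matched the annotation and 36 had a peak in any list, or 72% against 62.6% of all genes. A region present in both JQ1 lists was found at 11 of the 50, or 22% against 17.8% of all genes. One present in both untreated lists was found at 15, or 30% against 24.3%, and one in all 4 lists at 9, or 18% against 13.6%. EDEM1 and EDEM3, which mark misfolded glycoproteins for degradation, and SYVN1 and SEL1L, which form the ubiquitin ligase of that route, were among these 9. The 5 others were CREBZF, the stress kinase gene MAP3K5, TRIB3, a target of CHOP, MANF, which encodes a secreted ER protein, and PPP1R15B, a subunit of the phosphatase that reverses PERK signalling.

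The EDEM1 region, 45.4 kb from its span, was the best ranked of the 9. Its −log10 q was 41.7 and 126.1 in JQ1 replicates 1 and 2, against 20.2 and 59.8 in untreated replicates 1 and 2, with 42 and 107 fragments with JQ1 and 27 and 122 untreated. EDEM1 was the 1 gene of the 9 whose q-values were stronger with JQ1 in both replicates. In replicate 2, however, the EDEM1 summit held fewer fragments with JQ1 than untreated. Its fold enrichment over the local background there was 30.3 with JQ1 and 12.1 untreated. By the same measure 5 (CREBZF, TRIB3, MANF, PPP1R15B and SEL1L) were weaker in both and 3 (SYVN1, MAP3K5 and EDEM3) were mixed. Such q-values also depend on the depth of a list, which summit height takes out, and on the local background. Height ratios of these 9 regions are not given here. At CREBZF those of replicate 1 were close, 12.8 with JQ1 and 13.0 untreated, with 28 and 24 fragments. The genome-wide backgrounds of these lists were 1.13 and 1.25 fragments, so that the CREBZF summit height in replicate 1 was higher with JQ1. CREBZF was thus weaker in both replicates by q-value only. Of the 3 regions that ERN1, XBP1 and CREB3L1 had in all 4 lists, 0 were stronger in both, 2 were weaker in both and that of ERN1 was mixed. The ERN1 height ratio was below 1 in replicates 1 and 2 (0.873 and 0.768). Over all 3236 regions in all 4 lists, 13.9% were stronger with JQ1 in both replicates and 45.9% weaker in both. At TRIB3 the values were 10.4 and 26.8 with JQ1 and 21.9 and 42.8 untreated, and at MANF 4.64 and 34.9 with JQ1 and 21.8 and 54.5 untreated, both weaker with JQ1 in each replicate. Of the 50 genes 1 had a JQ1-separated region, or 2% against 0.719% of all genes, and 1 an untreated-separated one, or 2% against 1.24%. EIF2S1, which encodes the translation factor subunit that PERK phosphorylates, was the first of these, and TRAF2, an adaptor of IRE1, was the other. These 2 genes were named after their values were seen.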

How the data were processed

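The ChIP-seq series comprised 8 samples per the labels, with 2 precipitates and 2 inputs for each treatment. Peak lists of the 4 precipitates were used, and the 4 inputs were not analysed here. The submitters' processing notes name MACS2, Picard, Bowtie2 and build hg38, while tool versions and settings were not given in the sources used here. Reads were 75 bases long, by the series' design text. Lists belong to single samples, so peaks had been called per sample. The deposited lists give the authors' fold enrichment (a ratio), −log10 p-value, −log10 q-value and score per peak. The deposited score was not used. Peak values are the authors' own and were set side by side without a test.

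Lines outside the autosomes, X and Y were dropped, namely 10 lines of JQ1 replicate 1 and 8 of untreated replicate 2. Peaks sharing at least 1 bp were merged into regions. Fragments at a summit were the whole number whose pileup and background, with a pseudocount of 1, gave both the fold and the Poisson p-value within 0.005 on the −log10 scale. This matched 100% of peaks after rounding, with pileups of untreated replicate 2 scaled by 0.686. Untested ratios of heights carry exact (Clopper-Pearson) 95% intervals for counting error only, and sequencing reads are not independent molecules. Genes, starts and promoters came from RefSeq (GRCh38.p14). The promoter table gave windows for 15843 of 20037 protein-coding genes. The distance used the transcription start at the end of the span where the table had one.

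The members, gene lists and tests were chosen with earlier results of these data known. The shares and numbers of peaks near the genes were compared by two-sided exact permutation tests over the 6 splits of 4 lists. Named are all 10 genes, each region in 2 or more lists, and of 50 other pathway genes those with a region in all 4 lists. Regions in a single list are also given. Alternatives were distances of 10 and 100 kb, a q-value of 1e-05, lists cut to 4974 peaks each, a reciprocal overlap of 50%, summits within 100 bp, left-out replicates and a replicate block. The ratio of fold enrichments was added after seeing the data. Region merging and fragment recovery were tested on simulated data. Python 3.11.15, numpy 2.4.6, pandas 2.3.3 and scipy 1.17.1 were used.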

Additional observations from a re-analysis of the deposited data

How the results depend on the processing

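The near-zero differences in share and number of peaks changed sign with the setting. The share difference (JQ1 minus untreated, 0.00364 percentage points) was −0.00376 within 100 kb, −0.0151 at a q-value of 1e-05 or less and −0.0201 with lists of equal length, and ranged from −0.00959 to 0.0169 over left-out lists and replicates. The log2 difference in number (−0.07) was 0.16 within 10 kb and ranged from −1.20 to 1.06 over left-out lists and replicates. Left-out values below 0 for the share came without replicate 1 and without JQ1 replicate 1. For the number, positive values came without replicate 1, without JQ1 replicate 1 and without untreated replicate 2. Replicate numbers mark no stated pairing, and presence deviations of same-numbered lists correlated by −0.047 over regions. A correlation over regions does not take in the difference in list length between replicates. With a replicate block the differences were again 0.00364 and −0.07.

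Several counts were smaller with stricter settings, while others held, such as the 1 JQ1-separated and 2 untreated-separated regions within 10 kb and the 3 genes with a region in both untreated lists at a q-value of 1e-05 or less. Within 10 kb, 2 of the 10 genes kept a region in both JQ1 lists, 1 gene had a region in all 4 lists and 1 region was in all 4, and of the 50 other genes 3, 5 and 2 had a region in both JQ1, both untreated and all 4 lists. At a q-value of 1e-05 or less, 2 of the 10 genes had a region in both JQ1 lists, 1 gene had 1 region in all 4 lists, 0 regions were JQ1-separated and 1 was untreated-separated, and 7 of the 50 other genes had a region in both JQ1 lists. With lists of equal length, 1 of the 10 genes had a region in both JQ1 lists, and 0 genes and 0 regions were in all 4 lists, with 0 separated regions in either direction. Of the 50 other genes, 5 then had a region in both JQ1 lists and 4 in all 4. These settings leave fewer peaks or smaller windows by construction. Shares over all genes and regions at these settings are not given here. Whether the counts differ from those of other genes therefore cannot be read from them.

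Without replicate 1 or without replicate 2, the 10 genes numbered 4 to 8 with a JQ1 region, 3 to 9 with an untreated region and 3 to 8 with both. Regions called in every remaining list numbered 3 to 17, JQ1-separated ones 2 to 6 and untreated-separated ones 3 to 5. The 50 other genes numbered 11 to 33, 15 to 31 and 9 to 28 for JQ1, untreated and both. The upper numbers come from the long replicate 2 lists alone, and shares over all genes and regions are not given for them either. Reciprocal overlap and summit distance left all counts within 1.5 times. Fold enrichment in place of height gave 1.60 at DDIT3 and 1.01 at the CREB3L2 region 51.7 kb downstream, and also put the XBP1 region 16.4 kb downstream (1.40), the ATF4 region (1.24) and the CREB3L1 region 21.1 kb upstream (1.19) above 1, where the height ratio of all 5 was below 1. How far depth limits the weak regions was not tested, and the weakest replicate 1 peaks of the set, at CREB3L1 and ERN1, held 9 fragments with JQ1 and 14 untreated.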
